A study of Mus musculus with 6 samples.

Results

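*Msx1*, *Msx2*, *Dlx1*, *Dlx2*, *Dlx3*, *Dlx4*, *Dlx5*, *Tbx2* and *Tbx3* encode transcription factors of the Msx and distal-less homeobox families and of the T-box family. These 9 genes were picked by name and not by a threshold on their values, but earlier results of these data were known by then. Each matched 1 of the 55809 genes of the count table. They were measured by RNA-seq of poly(A) RNA in HC11, an established line of mouse mammary epithelial cells, with 3 libraries from medium without BMP7 (Ctrl) and 3 from medium that contained BMP7. The labels give no other treatment and no genetic change for either group. The methods describe HC11 cells that were starved and then given BMP7 at 1 concentration for either of 2 durations before RNA was taken, and they do not say which duration the RNA-seq libraries had. The BMP7 libraries are named by the numbers of their columns, replicates 1, 3 and 4. HC11 is a single line, and nothing states that the libraries of a group came from separate cultures, so p-values measure only the spread between these libraries, which may be technical.

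Bone morphogenetic proteins bind serine/threonine kinase receptors that phosphorylate SMAD1 and SMAD5, which enter the nucleus with SMAD4 and bind regulatory DNA of their target genes. *Msx* and *Dlx* genes are long-known targets of this pathway in limb, tooth, skull and skin, and most *Dlx* genes stand in pairs that face each other on the chromosome. In the mammary gland, *Tbx3* is required for the first placodes and is mutated in ulnar-mammary syndrome, while *Msx1* and *Msx2* act together in the embryonic bud.

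The stretches before the start sites are shown for 1 gene that was higher with BMP7, *Msx1*, and for 1 that had no count, *Dlx2*. They come from RefSeq on build GRCm38.p6, which is not the build of the count table's coordinates, and an entry was used for 4 of the 9 genes, *Msx1*, *Msx2*, *Dlx1* and *Dlx2*. Each is 250 bases long, is read 5′ to 3′ on the strand of the gene and overlaps no annotated exon. Capitals mark matches, on either strand, to the motifs GGCGCC and GGAGCC, which are GC-rich sequences of the type bound by BMP-responsive SMADs, to TAATTA, a homeodomain-type sequence, to CCAAT or to TATAAA.
*Msx1*, chr5:37824586-37824835, minus strand: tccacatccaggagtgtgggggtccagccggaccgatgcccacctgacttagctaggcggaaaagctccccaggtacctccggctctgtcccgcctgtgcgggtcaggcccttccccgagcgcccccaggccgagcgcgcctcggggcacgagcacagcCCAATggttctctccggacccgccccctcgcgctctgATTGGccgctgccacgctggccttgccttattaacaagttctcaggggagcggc
*Dlx2*, chr2:71546755-71547004, minus strand: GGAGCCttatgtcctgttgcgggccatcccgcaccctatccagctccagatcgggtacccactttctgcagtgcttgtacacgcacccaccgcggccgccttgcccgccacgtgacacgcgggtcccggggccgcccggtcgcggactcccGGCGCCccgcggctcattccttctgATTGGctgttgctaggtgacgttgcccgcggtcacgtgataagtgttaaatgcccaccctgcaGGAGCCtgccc
For *Msx2*, whose window lies within an annotated exon, only the 30 bases around its TAATTA match are shown, with the match in capitals.
*Msx2*, chr13:53472950-53472979, minus strand: tgactgctcctgTAATTAactcctaattta

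The *Msx1* stretch held 2 CCAAT matches, which began 91 and 54 bases before the start, and none of the other motifs. The *Dlx2* stretch held GGCGCC at 99 bases, GGAGCC at 250 and 11 bases and CCAAT at 74 bases before the start. In the *Msx2* window TAATTA began 187 bases before the start, GGAGCC was matched at 33 and 12 bases and CCAAT at 124 bases. The *Dlx1* window, which also lies within an annotated exon, held none of the 5 motifs. No matches overlapped each other. Of 32817 promoter windows of this length, 9.59% held GGCGCC, 26.0% GGAGCC, 4.85% TAATTA, 33.8% CCAAT and 12.4% TATAAA, so CCAAT and GGAGCC are common letters in such windows. The *Msx1* and *Dlx2* stretches were 68% and 66.4% G or C. These matches describe the letters only.

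With BMP7, *Msx1*, *Msx2*, *Dlx1*, *Dlx3*, *Dlx4*, *Dlx5* and *Tbx3* were higher, *Tbx2* did not pass the test, and *Dlx2* had no count in any of the 6 libraries. A gene was called at an adjusted p under 0.05 in edgeR's quasi-likelihood test with a fold change over 1.2, and 7 of the 8 genes tested were called higher and 0 lower. Over all 15733 genes tested, 5.99% were called higher and 5.38% lower. *Dlx3* passed the filter on low counts only through the BMP7 libraries. Every Ctrl library was under the cutoff, so *Dlx3* had to differ between the groups to be tested at all. Without it, 6 of 7 were higher. The median log2 fold change was 1.199 over the 8 genes, 1.11 over the 7 without *Dlx3* and -0.01 over all genes. The log2 fold change was over 1 for 6 of the 8, *Msx1*, *Msx2*, *Dlx1*, *Dlx3*, *Dlx4* and *Dlx5*, against 1.60% of all genes called with such a rise. The groups did not overlap for the 7 called genes, with BMP7 on the higher side, as was the case for 14.8% of all genes, while 15.1% were without overlap on the lower side. On log2 CPM (counts scaled to library size, on a log scale), the exact two-sided permutation test gave p = 0.1 for each of the 7, the smallest value that 3 against 3 libraries allow. In bulk RNA a change in the share of cells that express a gene and a change in RNA per cell cannot be told apart.

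**Figure D1:**
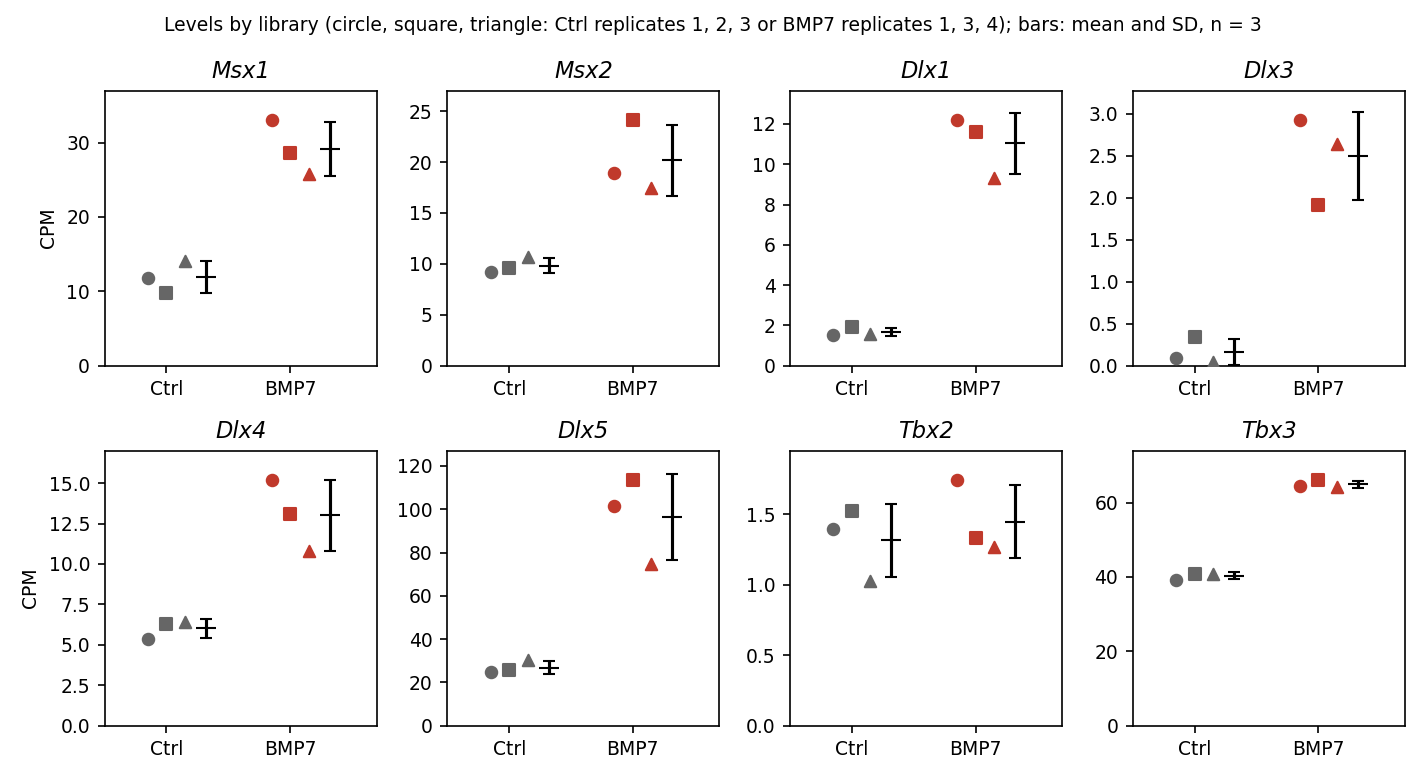
Levels in CPM (counts scaled to library size, linear axes from 0) of the 8 genes with counts in each Ctrl library (grey) and each BMP7 library (red). Symbols stand for replicates, and bars for the mean and SD of 3 libraries. The groups overlap for *Tbx2* and are apart for the other 7 genes.

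Library totals were 19858701 to 20327200 counts in Ctrl and 14607938 to 23748970 with BMP7. BMP7 replicates 3 and 4 stood apart from replicate 1 in marker genes of other cell types. The summed level of 10 adipocyte markers was 11.9 to 20.8 CPM in Ctrl and 21.7, 73.6 and 63.8 CPM in BMP7 replicates 1, 3 and 4. Of these, 6 of 7 tested were higher (5 of 5 without the 2 that passed the filter only through the BMP7 libraries). The sum of 10 macrophage markers was 51.8 to 56.1 CPM in Ctrl and 52.3, 29.0 and 28.0 CPM in the same order. Here 3 of 7 tested were lower, and 2 of the 7 passed the filter only through the Ctrl libraries. The largest part of this sum in Ctrl was *Lyz2*, with a mean of 26.2 CPM, against 22.5, 6.76 and 6.94 CPM with BMP7. *Cd68* went the other way, from 11.3 to 13.7 CPM, and was not called.

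The *Msx* genes encode homeodomain proteins that act mostly as repressors of transcription in cells that have not yet differentiated. *Msx1*, on chromosome 5 from 37977829 to 37981927 on the minus strand in the coordinates of the count table (annotation named mm39), had 11.8, 9.78 and 14.1 CPM in Ctrl replicates 1, 2 and 3 and 33.0, 28.6 and 25.8 CPM in BMP7 replicates 1, 3 and 4. The lowest BMP7 library was 1.83 times the highest Ctrl library. The group means were 11.9 ± 2.18 and 29.2 ± 3.63 CPM (SD, n = 3 each), and the fitted fold change was 2.44 with a 95% interval of 2.03 to 2.94 (log2 fold change 1.29, SE 0.13, edgeR adjusted p = 1.86e-06).

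*Msx2*, on chromosome 13 from 53620920 to 53627110 on the minus strand, had 9.20, 9.59 and 10.7 CPM in the Ctrl libraries and 19.0, 24.1 and 17.4 CPM in the BMP7 libraries. The Ctrl libraries lay close together, and among the BMP7 libraries replicate 3 was the highest, whereas for *Msx1* it was replicate 1. The fold change was 2.06, with an interval of 1.71 to 2.49 (log2 1.05, SE 0.13, edgeR adjusted p = 2.35e-05). The intervals of *Msx1* and *Msx2* overlap, and the difference between the 2 genes was not tested.

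The *Dlx* genes encode homeodomain activators of craniofacial, bone, skin and forebrain development, and in these cells they spanned the widest range of change. *Dlx3*, a regulator of hair follicle, epidermis and trophoblast, lies on chromosome 11 from 95010945 to 95016122 on the plus strand. It had 2, 7 and 1 counts in the Ctrl libraries and 42, 43 and 48 in the BMP7 libraries, that is 0.0963, 0.344 and 0.0489 CPM against 2.93, 1.91 and 2.64 CPM. It was thus close to the limit of detection without BMP7 and low with it. The ratio of the summed counts, 133 against 10 and scaled for library size, was 14.9, with an interval of 7.85 to 31.8 for counting error only. The fitted log2 fold change was 3.87 (SE 0.47, edgeR adjusted p = 2.45e-05), the largest of the 8 genes and rank 12 from the top among all genes tested. It was 4.96 without Ctrl replicate 2, which holds 7 of the 10 Ctrl counts.

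*Dlx4*, whose protein is known mainly from placenta and blood, faces *Dlx3* on chromosome 11 from 95031273 to 95037089 on the minus strand. Its levels were 5.35, 6.29 and 6.41 CPM in Ctrl and 15.2, 13.1 and 10.8 CPM with BMP7. Both members of the pair were higher in every BMP7 library. For *Dlx4* the fold change was 2.15, with an interval of 1.74 to 2.67 (log2 1.11, SE 0.14, edgeR adjusted p = 4.86e-05).

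*Dlx1*, known from interneurons of the forebrain, lies on chromosome 2 from 71358457 to 71364325 on the plus strand. It had 32, 39 and 32 counts in the Ctrl libraries and 175, 261 and 169 in the BMP7 libraries, or 1.54, 1.92 and 1.56 CPM against 12.2, 11.6 and 9.31 CPM. The lowest BMP7 library was 4.86 times the highest Ctrl library. The fold change of 6.56, with an interval of 5.05 to 8.54 (log2 2.71, SE 0.18, edgeR adjusted p = 1.79e-08), placed it at rank 33 among all genes tested. Its partner *Dlx2*, from 71373752 to 71377098 on the minus strand, had 0 counts in all 6 libraries, where 3 counts, the upper limit that a count of 0 allows, correspond to 0.133 to 0.209 CPM. *Dlx1* and *Dlx2* are co-expressed in forebrain and branchial arches, but no count of *Dlx2* accompanied the *Dlx1* counts here.

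*Dlx5*, an activator of osteoblast and craniofacial genes, lies on chromosome 6 from 6877805 to 6882085 on the minus strand. It had 24.6, 25.5 and 30.1 CPM in Ctrl and 101, 114 and 74.6 CPM with BMP7. All Ctrl libraries were far below the lowest BMP7 library, replicate 4, which was 2.48 times the highest of them. The fold change was 3.61, with an interval of 3.01 to 4.33 (log2 1.85, SE 0.12, edgeR adjusted p = 2.13e-08).

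The T-box genes *Tbx2* and *Tbx3* encode closely related repressors. *Tbx3*, on chromosome 5 from 119808734 to 119822789 on the plus strand, had 39.2, 40.9 and 40.9 CPM in Ctrl and 64.5, 66.1 and 64.3 CPM with BMP7. The libraries of each group lay within a few per cent of each other, so that the smallest change of the 7 called genes was also the most precisely measured. The fold change was 1.61, with an interval of 1.47 to 1.77 (log2 0.69, SE 0.06, edgeR adjusted p = 1.18e-06).

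*Tbx2*, on chromosome 11 from 85723377 to 85732774 on the plus strand, had 29, 31 and 21 counts in the Ctrl libraries and 25, 30 and 23 in the BMP7 libraries, or 1.40, 1.52 and 1.03 CPM against 1.74, 1.33 and 1.27 CPM. The groups overlapped. The log2 fold change was 0.12 (SE 0.31, edgeR adjusted p = 0.85), and the 95% interval of the fold change reached from 0.693 to 1.71, which includes the *Tbx3* value of 1.61. The difference between *Tbx2* and *Tbx3* was not tested.

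**Figure D2:**
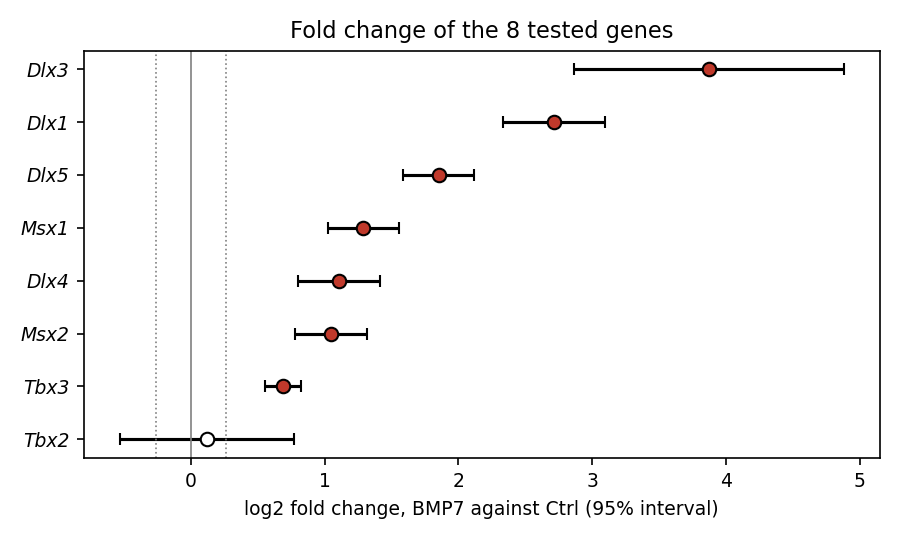
Log2 fold change of BMP7 against Ctrl for the 8 genes tested, with bars for the 95% interval. Filled points were called higher, and the open point, *Tbx2* at 0.12, was not. The values run from 0.69 for *Tbx3* to 3.87 for *Dlx3* among the called genes.

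The 3 BMP7 libraries did not rank alike for every gene. Replicate 4 was the lowest of the 3 for 6 of the 7 called genes, and for *Dlx3* replicate 3 was. The highest was replicate 1 for 4 genes and replicate 3 for 3 genes. Even so, the lowest BMP7 library exceeded the highest Ctrl library by a factor of 1.57 for *Tbx3*, 1.63 for *Msx2*, 1.69 for *Dlx4* and 5.55 for *Dlx3*. Against Ctrl, BMP7 replicate 1 alone gave log2 fold changes of 1.48 for *Msx1*, 0.95 for *Msx2*, 2.86 for *Dlx1*, 4.12 for *Dlx3*, 1.34 for *Dlx4*, 1.92 for *Dlx5* and 0.68 for *Tbx3*, each of them called. In that fit the lone library is assumed to vary like the Ctrl libraries.

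Levels between genes were compared per exon length, as RPKM (counts scaled to library size and to exon length), computed from the counts and the deposited lengths. *Dlx5* was the highest of the 9 genes in both groups, with a mean of 11.8 RPKM in Ctrl and 42.6 RPKM with BMP7. It was followed in Ctrl by *Tbx3* at 6.09, *Msx1* at 3.84, *Msx2* at 2.99 and *Dlx4* at 1.84 RPKM. *Tbx2* at 0.363, *Dlx1* at 0.310, *Dlx3* at 0.0626 and *Dlx2* at 0 RPKM formed the low end. Neighbours in this order that overlapped were *Msx1* and *Msx2*, with ranges of 3.16 to 4.56 and 2.81 to 3.25 RPKM, and *Tbx2* and *Dlx1*, with ranges of 0.283 to 0.420 and 0.286 to 0.355 RPKM.

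With BMP7 the order of the means was the same for the upper 5 genes, and the mean of *Dlx3*, below that of *Tbx2* in Ctrl, was above it. The place of *Dlx1* relative to *Tbx2* in Ctrl depends on the length used, as given with its overlap with *Dlx1as*. *Tbx3* was at 9.81 and *Msx1* at 9.42 RPKM, with ranges that overlapped, 9.70 to 9.98 and 8.34 to 10.7 RPKM. *Msx2* was at 6.15, *Dlx4* at 3.98, *Dlx1* at 2.05, *Dlx3* at 0.957 and *Tbx2* at 0.399 RPKM. Summed over those of the 9 genes that belong to each family, without *Dlx6*, *Tbx15* and other relatives, the *Msx* genes went from 6.08 to 7.81 RPKM in the Ctrl libraries to 13.7 to 16.6 RPKM in the BMP7 libraries, the *Dlx* genes from 12.8 to 15.6 RPKM to 39.0 to 57.0 RPKM, and the *Tbx* genes from 6.30 to 6.59 RPKM to 10.1 to 10.3 RPKM. *Dlx5* made up 82.4% to 85.4% of this *Dlx* sum in Ctrl and 84.5% to 87.9% with BMP7. With *Dlx6* added, which was at 3.56 to 3.89 RPKM in Ctrl and 8.44 to 10.9 RPKM with BMP7, its share was 65.4% to 68.4% and 69.5% to 73.9%.

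**Figure D3:**
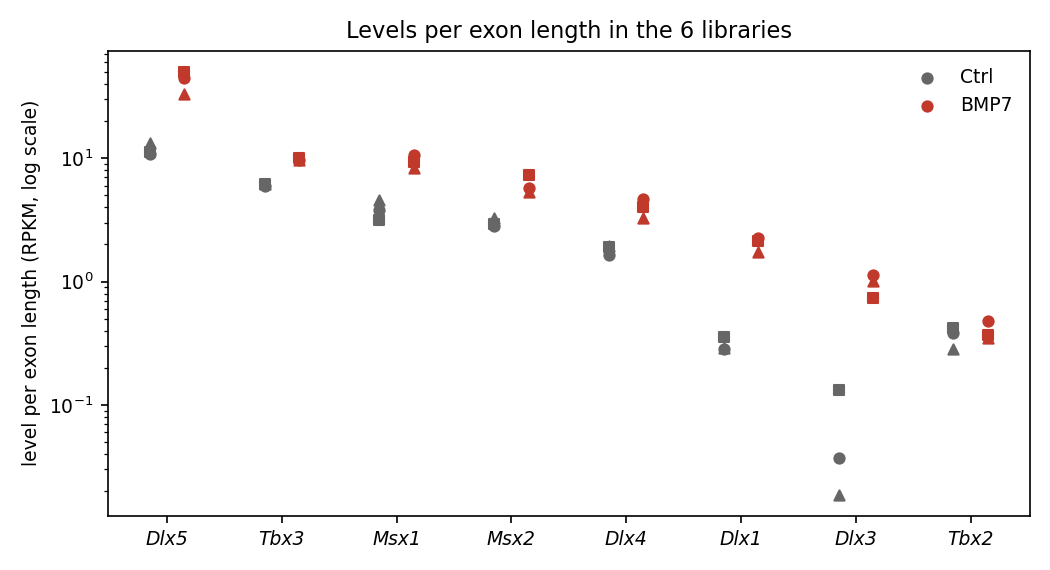
Level per exon length (RPKM, log axis) of the 8 genes with counts, with 1 point per library, Ctrl in grey and BMP7 in red. *Dlx5* is highest in both groups, and *Dlx3* lies below *Tbx2* in Ctrl and above it with BMP7.

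Counting ignored strand and dropped fragments that fell in exons of more than 1 gene, which matters for *Dlx1*. Its exons share 2339 bases, 43.3% of their length, with *Dlx1as*, a long noncoding RNA on the opposite strand, and the 2 genes cannot be told apart there. *Dlx1as* had 10.7, 7.72 and 7.04 CPM in Ctrl and 8.50, 12.2 and 12.4 CPM with BMP7. These groups overlapped, and the log2 fold change of 0.39 (SE 0.17, edgeR adjusted p = 0.153) was not called. *Dlx1as* was called higher without Ctrl replicate 1 (0.59, adjusted p = 0.0356) or without BMP7 replicate 1 (0.53, adjusted p = 0.0430), and with no filter on low counts. Over its unshared exon length alone, *Dlx1* was at 0.548 RPKM in Ctrl and 3.61 RPKM with BMP7, which puts it above *Tbx2* in both groups.

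The other overlaps were small. *Dlx4* shares 79 bases, 2.42% of its exons, with *Dlx4os*, which had 0 counts in each Ctrl library and 5, 5 and 2 in the BMP7 libraries and was not tested. *Tbx3* shares 258 bases, 3.89%, with *Tbx3os1*, whose log2 fold change of 1.02 (SE 0.40, edgeR adjusted p = 0.114) was not called, and 190 bases, 2.87%, with ENSMUSG00000120646, which had at most 8 counts in a library. *Msx1*, *Msx2*, *Dlx2*, *Dlx3*, *Dlx5* and *Tbx2* shared no exon base with another gene.

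The genes around each locus were then read, within 100 kb of the gene or gene pair, a window chosen after values had been seen. Around *Dlx3* and *Dlx4*, 5 of the 9 genes tested were higher and 0 lower, against 5.99% higher over all genes, and both *Dlx* genes are among the 5. *Dlx3*, *Gm11514* and ENSMUSG00000119939 passed the filter only through the BMP7 libraries. All their Ctrl libraries were under the cutoff, so they had to be higher to be tested. Without these 3 genes 2 of 6 were higher, *Dlx4* and *Gm11515*. Of those 6, 1 passed only through the Ctrl libraries and was not called. *Gm11514*, whose nearer end is 30.6 kb from *Dlx4*, had 1, 1 and 0 counts in Ctrl and 27, 50 and 26 counts with BMP7, a scaled ratio of 57.6 with a counting interval of 15.6 to 482 (edgeR adjusted p = 5.52e-06). *Gm11515* went from 8.27 to 31.5 CPM (log2 fold change 1.93, SE 0.11, edgeR adjusted p = 2.15e-09). ENSMUSG00000119939, between *Dlx3* and *Dlx4*, had 8, 0 and 0 counts in Ctrl and 19, 13 and 13 with BMP7, and its call (log2 fold change 2.64, edgeR adjusted p = 0.0308) was lost without Ctrl replicate 2, Ctrl replicate 3, BMP7 replicate 1 or BMP7 replicate 4, with adjusted p of 0.140, 0.106, 0.109 and 0.0513.

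At the *Dlx5* locus, 3 of 4 genes tested were higher and 0 lower, namely *Dlx5*, *Dlx6* and *Dlx6os1*. *Dlx6*, the partner of *Dlx5*, lies from 6863334 to 6868568 on the plus strand and went from 8.77 to 22.3 CPM (log2 fold change 1.35, SE 0.12, edgeR adjusted p = 4.79e-07). *Dlx6os1*, a noncoding RNA on the minus strand whose span from 6749740 to 6871632 runs across *Dlx6*, with no exon base shared, had a smaller log2 fold change of 0.79 (edgeR adjusted p = 9.08e-06). *Sdhaf3*, 73.9 kb away on the other side, had -0.13 and was not called.

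At the other loci the called genes stood alone. Of the genes tested within 100 kb, 1 of 4 was higher around *Dlx1* and *Dlx2*, 1 of 3 around *Msx2*, 1 of 2 around *Tbx3* and 0 of 2 around *Tbx2*, and *Msx1* was the only gene tested in its window. *Metap1d*, 2.92 kb from *Dlx1*, had a log2 fold change of 0.21 (edgeR adjusted p = 0.107). *Bcas3*, 6.49 kb from *Tbx2*, had -0.04. The nearest tested genes of *Msx1* (*Evc2* and *Stx18*), *Msx2* (*Sptlc1* and *Gm5449*) and *Tbx3* (*Med13l* and *Rbm19*) were not called, with values between -0.30 and 0.03, although *Evc2* was called lower with upper-quartile scaling (-0.28) and *Rbm19* without BMP7 replicate 4 (-0.38). *Brip1* beside *Tbx2*, at -0.18, and ENSMUSG00000120792 beside *Dlx3*, at 0.17, were not called either. *Itga6*, an integrin gene 212 kb from *Dlx1*, was higher by 0.43 on the log2 scale (edgeR adjusted p = 0.000157).

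**Figure D4:**
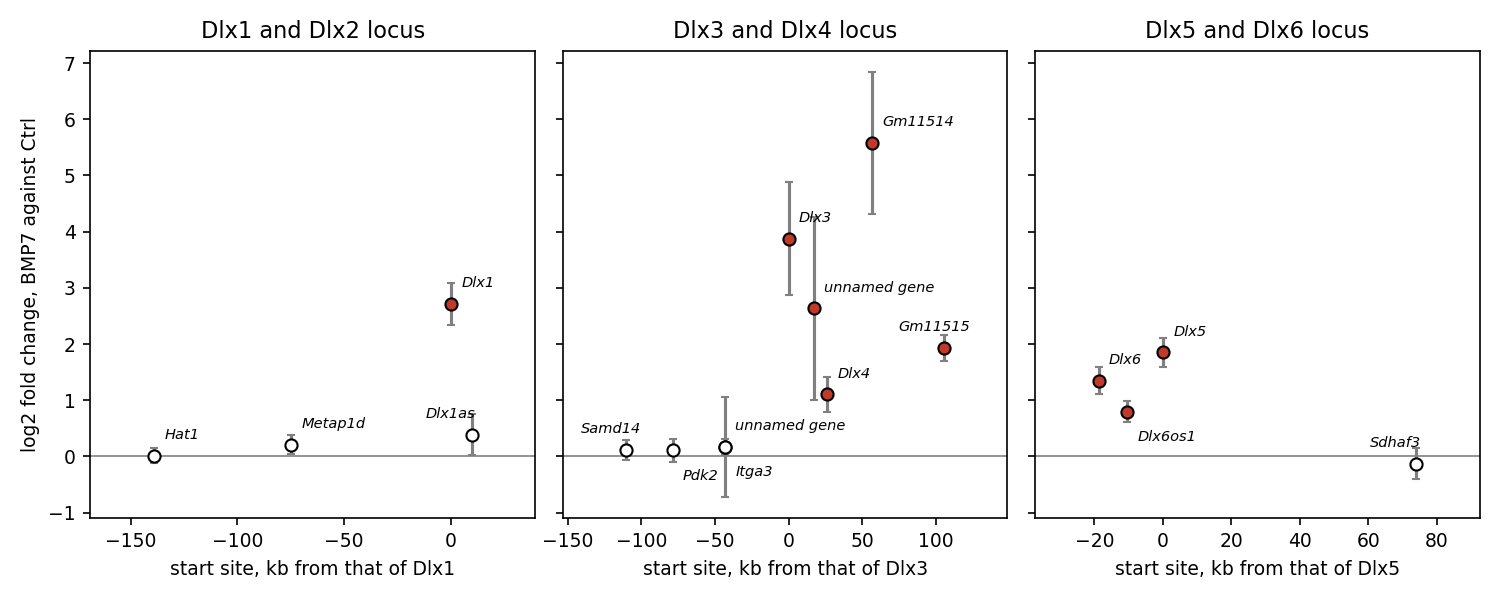
Log2 fold change of BMP7 against Ctrl for the tested genes within 100 kb of the *Dlx1* and *Dlx2*, *Dlx3* and *Dlx4*, and *Dlx5* and *Dlx6* pairs, by distance between start sites in kb, with bars for the 95% interval. Filled points were called higher, 1 of 4 at the first locus, 5 of 9 at the second and 3 of 4 at the third. At the second locus 3 of the 5 could be tested only because of their BMP7 counts.

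Of the other genes of these families, 17 were listed, 16 had a row and 5 were tested. *Dlx6*, above, and *Tbx15*, a T-box gene of skeleton and skin, were higher and none was lower, and the median log2 fold change was -0.07. *Tbx15* went from 40.7 to 53.4 CPM (log2 0.39, SE 0.07, edgeR adjusted p = 0.00141), and this call was lost in a test against a fold change of 1.2 (adjusted p = 0.182). The T-box genes *Tbx6*, *Tbx18* and *Mga* had values of -0.32, -0.07 and -0.12 and were not called. *Msx3* had 5, 3 and 6 counts in Ctrl and 11, 14 and 8 with BMP7, too few for the filter, and *Tbx1*, *Tbx10* and *Tbx19* had 0 counts in all libraries.

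Around these factors, 26 genes of the embryonic mammary bud were listed. Of the 14 tested, 7 were higher and 2 lower, and their median log2 fold change was 0.41. Without *Hoxc8* and *Lgr5*, which passed the filter only through the BMP7 libraries, 6 of 12 were higher. *Sostdc1*, an antagonist of BMP and Wnt in the bud, went from 36.9 to 197 CPM (log2 2.42, edgeR adjusted p = 1.06e-10). *Gata3*, a regulator of luminal fate, went from 63.3 to 132 CPM (log2 1.06, edgeR adjusted p = 4.88e-07), and the homeobox gene *Hoxc8* had a log2 fold change of 3.74 on 8 counts in all of Ctrl (edgeR adjusted p = 0.000119). The 2 lower genes were *Tfap2c*, an AP-2 factor, which went from 77.4 to 41.7 CPM (log2 -0.89, edgeR adjusted p = 1.53e-06), and the ligand gene *Wnt10a*, at -0.45 (edgeR adjusted p = 0.0348), whose call was lost without Ctrl replicate 1 or 2 or BMP7 replicate 3 or 4. *Lef1*, the Wnt effector of the bud, had at most 2 counts in a library, and *Bmp4*, *Erbb4*, *Dkk4* and *Foxi3* had none.

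The BMP response and its feedback were read from 20 genes. Among the 18 that passed the filter, 12 were higher and 1 was lower, and the median was 1.94. *Atoh8*, *Smad9*, *Nog* and *Gata2* passed it only through the BMP7 libraries, and without them 8 of 14 were higher and the median was 0.53. The log2 fold changes of *Atoh8*, *Id3*, *Id1* and *Smad9* were 6.38, 6.31, 4.28 and 3.91, the last of them close to that of *Dlx3*. The *Atoh8* value rests on 5 counts in all of Ctrl, with a scaled count ratio of 89.8 and a counting interval of 38.1 to 278. *Chrd*, an extracellular BMP antagonist, was the lower one, at -1.10 (edgeR adjusted p = 0.0180). Its call was lost without Ctrl replicate 2 or BMP7 replicate 3, and in the test against a fold change of 1.2. Of 11 genes of BMP receptors and SMADs, 9 passed the filter, 2 were higher and 0 lower, and the median was 0.17. These were the receptor *Acvr1* at 0.67 (edgeR adjusted p = 1.2e-05) and *Smad1* at 0.45 (edgeR adjusted p = 0.00128), whose call was also lost in the test against a fold change of 1.2 (adjusted p = 0.0892).

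Among 18 genes known as targets of Msx, Dlx or Tbx proteins in other cells, 10 passed the filter. Calls were made for 5 higher and 2 lower genes, and the median was 0.28. Without *Sp7* and *Hoxc13*, which passed only through the BMP7 libraries, 3 of 8 were higher and the median was 0.13. The bone genes *Alpl*, an alkaline phosphatase, and *Sp7*, a transcription factor of osteoblasts, had log2 fold changes of 3.39 and 2.41 (edgeR adjusted p = 2.95e-08 and 9.2e-05). *Hoxc13*, a homeobox gene of the hair follicle, had 2 counts in all of Ctrl and 103 with BMP7, a scaled ratio of 57.6 with a counting interval of 15.6 to 482. *Cdkn1a*, an inhibitor of the cell cycle, which T-box repressors can silence, was higher, from 73.9 to 127 CPM (log2 0.78, edgeR adjusted p = 2.2e-06), and *Runx2* was higher at 0.34.

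Further genes of that list were named after their values had been seen. *Cdkn2a*, the classical target that *Tbx2* and *Tbx3* repress, was at 0.03 and was not called. The 2 lower genes were *Ccnd1*, a cyclin gene, at -0.39 and *Cdh1*, which encodes E-cadherin, at -0.27. The *Ccnd1* call was lost in DESeq2 and without any one library except Ctrl replicate 1, its groups overlapped, and its value was -0.20 without Ctrl replicate 2. The *Cdh1* value is near the fold change threshold, and its call was lost without Ctrl replicate 2 or 3 or BMP7 replicate 1.

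For each called gene, the 3 genes with the most similar pattern over the 6 libraries were taken, among 14100 genes whose mean level was 1 CPM or more, by Euclidean distance of centred log2 CPM. They were *Col2a1*, *Pnldc1* and *Hs3st3b1* for *Msx1*, with *Col2a1* at a distance of 0.237. For *Msx2* they were *Filip1l*, *Golim4* and *Gata3*, at distances of 0.159 to 0.163. For *Dlx1* they were *Smad7*, at 0.364, *Bdkrb2* and *Hoxc9*. For *Dlx3* the nearest were *Smad9*, *Alox8* and *Tmem151a*, and the smallest distance was 0.835, the least close of the 7. For *Dlx4* they were *Ccdc74a*, at 0.120, *C430049B03Rik* and *C1qtnf12*, and for *Dlx5* *Col6a2*, at 0.316, *Hey1* and *Gadd45g*. For *Tbx3* they were *Vdr*, at 0.0801, *Zfp365* and *Slc44a2*. This distance depends on the size of the change between the groups. The 3 genes nearest *Msx2* had log2 fold changes of 1.05, 1.04 and 1.06, beside its own 1.05. Shared control of genes found in this way was not tested.

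The sum of 10 fibroblast markers was 2193 to 2490 CPM in Ctrl and 3309 to 3962 CPM with BMP7, with 5 of 8 tested higher and 1 lower. Most of the sum was *Postn*, with means of 2226 and 3506 CPM. *Dcn* had 1.73, 0.737 and 1.08 CPM in Ctrl and 1.74, 4.44 and 4.90 CPM in BMP7 replicates 1, 3 and 4. *Dpt* had 0.530, 0.295 and 0.196 CPM and 0.279, 2.40 and 1.98 CPM in the same order. *Dcn* and *Dpt* were thus high only in the 2 replicates that stood apart. This did not hold for *Postn* and *Col1a2*. In BMP7 replicate 1 they had 3206 and 3.76 CPM, against at most 2372 and 1.62 CPM in Ctrl. *Col3a1*, also called higher, had 3.69 CPM in that replicate, against at most 3.52 CPM in Ctrl. The lower gene was *Col1a1*, which went from 71.1 to 53.2 CPM (log2 fold change -0.41). The sum of 8 osteoblast markers was 123 to 135 and 164 to 197 CPM, and most of it was *Runx2*, with means of 125 and 158 CPM. Of these markers, 4 of 4 tested were higher, or 3 of 3 without *Sp7*, which passed the filter only through the BMP7 libraries. The late markers *Bglap* and *Ibsp* had at most 5 and 3 counts in a library. The paper describes HC11 as a luminal line. The 8 epithelial markers, which cannot identify a line, summed to 8048 to 8196 CPM in Ctrl and 8495 to 9830 CPM with BMP7. Most of this sum was the basal keratin genes *Krt14*, with means of 3489 and 4696 CPM, and *Krt5*, with 2643 and 2582 CPM. Of 7 tested, 2 were higher, *Krt14* and *Trp63*, with log2 fold changes of 0.43 and 0.64. The 3 lower were the luminal keratin gene *Krt18*, *Epcam* and *Cdh1*, at -0.67, -0.42 and -0.27. *Krt8*, which the paper also uses as a luminal marker, had means of 63.2 and 67.1 CPM and was not called. *Krt18* had means of 49.5 and 31.3 CPM, so both lay far below *Krt5* and *Krt14*. The luminal keratin gene *Krt19* was near 0, with at most 8 counts in a library and none in BMP7 replicate 4. No gene of these 5 marker lists was at 0 in all libraries. The part of the fibroblast and osteoblast markers in the values of the *Msx*, *Dlx* and *Tbx* genes was not tested.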

How the data were processed

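Poly(A) RNA of HC11 cells was sequenced by the authors in 3 Ctrl and 3 BMP7 libraries. The deposited values are counts of fragments per gene from featureCounts (2.0.1 in the file header, Subread 2.0.3 in the submitters' processing notes), counted without strand on an annotation named mm39, while the methods and notes also name mm10. Total counts per library ranged from 14607938 to 23748970, and precision is limited by the 3 libraries per group. Groups followed the labels, and the BMP7 columns could be tied to their group but not to single labelled samples.

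Genes were filtered with filterByExpr, which keeps a gene when at least 3 of the 6 libraries reach the cutoff. A gene passed only through 1 group if all 3 libraries of that group, but not of the other, reached the cutoff. Counts were scaled by TMM and tested with the quasi-likelihood test of edgeR 4.0.16 in R 4.3.3 on all 15733 genes kept, with Benjamini-Hochberg adjustment. Genes past an adjusted p of 0.05 with a fold change over 1.2 were called. The SE was derived from the F statistic and intervals are 95%. CPM used TMM-scaled library sizes with no prior count, and log2 CPM a prior count of 2. Count intervals and limits are exact binomial or 3 counts and cover counting error only. Replicates differed by 5.34 to 12.9 in chi-square per degree of freedom, so none was a copy of another. The fit was tested on simulated data. The members, gene lists and tests were chosen with earlier results of these data known. Genes named in the text were the members, genes overlapping them, the nearest tested gene on each side, the 3 genes most alike, called genes of the other family list, and the called genes with the 4 largest absolute changes of each pathway list. The 100 kb windows and every other gene named were chosen after values were seen. Alternatives were RLE and upper-quartile scaling, DESeq2 1.42.0, glmTreat at a fold change of 1.2, other count filters, each library left out in turn, and BMP7 replicate 1 alone.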

Additional observations from a re-analysis of the deposited data

How the results depend on the processing

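Under 13 alternatives, the 7 called genes kept their direction and their call, except that *Dlx3* was not tested with at least 10 counts in every library. Their log2 fold changes ranged over 1.17 to 1.48 for *Msx1*, 0.89 to 1.14 for *Msx2*, 2.64 to 2.86 for *Dlx1*, 3.46 to 4.96 for *Dlx3*, 0.99 to 1.34 for *Dlx4*, 1.71 to 2.01 for *Dlx5* and 0.67 to 0.70 for *Tbx3*, and the highest adjusted p was 0.00115, for *Dlx3*. *Tbx2* was called under none and changed sign, with -0.026 to 0.24 when 1 library was left out. Among the uncalled neighbours, leaving out 1 library gave -0.022 to 0.081 for *Stx18*, -0.013 to 0.071 for *Sptlc1*, -0.94 to 0.35 for *Gm5449*, -0.39 to 0.60 for ENSMUSG00000120792, -0.092 to 0.019 for *Bcas3* and -0.056 to 0.052 for *Med13l*, and *Cdkn2a* had -0.027 to 0.081. *Med13l* was at -0.00696 with upper-quartile scaling. With BMP7 replicate 1 alone, *Sptlc1* was at -0.054, *Gm5449* at 0.63, *Bcas3* at 0.054 and *Med13l* at -0.077. Under glmTreat, the genes called higher fell to 1 of the other family genes (2 in the report), 3 of the bud genes (7) and 1 of the receptors and SMADs (2), and those called lower to 1 of the bud genes (2), 0 of the feedback genes (1) and 0 of the known targets (2), with 494 higher and 254 lower over all genes (942 and 846). Of the known targets, 3 were higher with at least 10 counts in every library (5), where *Sp7* and *Hoxc13* were not tested. The known targets called lower numbered 1 with RLE scaling and 0 in DESeq2. BMP7 replicate 1 alone also gave 1 lower gene of the other family (0) and 0 of the feedback genes. Leaving out 1 library, the lower calls were 1 to 3 for bud genes, 0 to 1 for feedback genes, 0 to 2 for known targets and, for all genes, 563 (without Ctrl replicate 2) to 902. The causes were not tested. No paired analysis was possible because the BMP7 columns carry the numbers 1, 3 and 4, which are not those of the labels. Genes with few counts, such as *Dlx3* and *Tbx2*, are limited by depth.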
